A study of Mus musculus with 20 samples.

Results

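The 36 genes described here encode the machinery of the unfolded protein response of the endoplasmic reticulum (ER) and of the cytosolic heat shock response. They were found by symbol in each of 20 deposited count files, among 24421 genes. The list was drawn up by gene function, with earlier results of these data known. By role, 14 are ER chaperones and folding enzymes, 7 act in ER-associated degradation, 5 are stress sensors or transcription factors, 4 are outputs of the PERK and ATF4 branch, and 6 are cytosolic heat shock proteins. Neocortex and hippocampus were collected from mice aged 3 months, and each combination of genotype and region has 5 libraries. The cTKO mice carried floxed App, Aplp1 and Aplp2 together with a Cre recombinase driven by Camk2a, so the deletion falls in excitatory neurons of the forebrain after birth and the other cells of the tissue keep these genes. The controls, labelled wild type in the deposit, were littermates that carried the floxed alleles without Cre, and both genotypes were of mixed C57BL/6J and 129 background and of both sexes. The comparisons ask whether loss of the APP family changes these stress genes in either region, and how the regions differ in each genotype.

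In the ER, unfolded proteins bind the chaperone HSPA5 (BiP) and the sensors become active: IRE1 (Ern1), which splices the mRNA of Xbp1, PERK (Eif2ak3), which phosphorylates eIF2α and so favours translation of ATF4, and ATF6, which is cut to release a transcription factor. XBP1 and ATF6 raise the transcription of ER chaperones and degradation genes, and ATF4 raises genes of amino acid metabolism such as Asns together with Ddit3 (CHOP), Trib3 and Chac1. In the cytosol, unfolded proteins release HSF1, which raises Hspa1a, Hspa1b, Hsph1 and Dnajb1. The splicing and phosphorylation steps are not read by gene counts, so only the mRNA levels of sensors and targets are seen here.

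The libraries held between 12169474 and 25331954 counted reads. The targeted genes were lower in the cTKO libraries, with log2 fold changes of -2.10 for App, -1.92 for Aplp1 and -1.60 for Aplp2 in the neocortex and -1.78, -1.93 and -1.25 in the hippocampus (edgeR's quasi-likelihood test, Benjamini-Hochberg FDR from 1.31e-09 to 3.31e-05). Xist passed 10 CPM (a gene's count scaled to the size of its library) in 2 of 5 libraries of each group. Some libraries stood apart. Embryonic and fetal blood transcripts, summed over 10 marker genes, came to 634 CPM in cTKO neocortex 5 and to 402 CPM in library 4 of cTKO hippocampus, while the other 18 libraries had 1.07 to 3.32 CPM. Choroid plexus and ependymal markers summed to 2792 CPM in control hippocampus 3 and to between 93.3 and 629 CPM in the other hippocampal libraries. The excitatory neuron markers were present in every library, at summed levels from 6788 to 10844 CPM.

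Promoter sequences of 30 of the 36 genes, from 250 bases before the RefSeq start to 50 bases after it (GRCm38.p6), were searched on both strands. The ER stress element, bound by ATF6 with NF-Y and written as CCAAT and CCACG spaced by 9 bases, was found for 9 of the 30 genes (30%) and for 37 of all 27025 genes with a promoter (0.137%). Since the genes were listed for their function in these stress responses, this contrast is a description and not a test. Among the ER chaperones it was found for 7 of 12. The sequences shown are those of Hspa5 and of the 5 carriers with the higher correlations with it, as described further on. Their r was 0.786 or more in both regions, the lowest being that of Calr in the neocortex. Capitals mark the element, which lies on the opposite strand, as CGTGG and ATTGG, in Calr, Creld2 and the second site of Hsp90b1.
Hspa5 (chr2:34772013-34772055, + strand): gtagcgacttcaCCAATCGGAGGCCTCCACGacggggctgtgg
Hsp90b1 (chr10:86705626-86705668, - strand): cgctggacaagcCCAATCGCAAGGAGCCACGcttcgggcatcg
Hsp90b1 (chr10:86705521-86705563, - strand): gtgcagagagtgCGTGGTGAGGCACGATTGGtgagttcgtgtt
Calr (chr8:84847063-84847105, - strand): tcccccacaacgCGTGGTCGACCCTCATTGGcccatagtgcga
Pdia6 (chr12:17266479-17266521, + strand): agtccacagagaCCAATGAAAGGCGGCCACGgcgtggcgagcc
Dnajc3 (chr14:118937815-118937857, + strand): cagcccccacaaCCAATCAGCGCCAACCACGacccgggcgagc
Creld2 (chr15:88819508-88819550, + strand): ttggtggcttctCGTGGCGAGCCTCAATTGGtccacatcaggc

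In Hspa5 the element spans the bases from -65 to -47 relative to the RefSeq start. Canx, Syvn1 and Derl3 also carried it, with correlations with Hspa5 of 0.17, 0.69 and 0.80 in the neocortex and 0.82, 0.60 and 0.53 in the hippocampus. The core of the amino acid response element to which ATF4 binds, TGATG followed by any base and AA, was found for Herpud1, Trib3, Chac1 and Asns, which is 13.3% of the 30 genes against 4.51% of all genes. It is shown for Asns, the gene whose hippocampal genotypes did not overlap, with the core in capitals from -23 to -16.
Asns (chr6:7693213-7693244, - strand): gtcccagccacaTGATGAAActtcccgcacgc

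A heat shock element, written as GAA, TTC and GAA spaced by 2 bases, was found for Hsph1 alone, and for 0.662% of all genes. The other ER stress motif searched, TGACG followed by TGG, was found for 0 of the 30 genes and for 0.714% of all genes. A match is a stretch of letters and was not tested as a binding site. Derl1, Manf, Hsp90aa1, Hspa8, Atf6 and Hyou1 were not matched in the promoter table.

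To compare levels between genes, CPM was divided by the length of the exon union. Hspa8, the constitutive cytosolic HSP70, had the highest level in control neocortex at 293 ± 20.9 CPM per kb (SD, n = 5), followed by the lectin chaperone Calr at 168 ± 31.4 CPM per kb and Hsp90aa1 at 141 ± 9.81 CPM per kb. These 3 genes also led in control hippocampus. Hspa5 stood at 60.4 ± 15.3 CPM per kb in control neocortex and at 72.2 ± 25.5 CPM per kb in control hippocampus. The lowest were the pseudokinase Trib3, at 0.159 ± 0.070 CPM per kb in control neocortex, the derlin family member Derl3, at 0.848 ± 0.434 CPM per kb, and the sensor Ern1, at 1.04 ± 0.098 CPM per kb. Counts of Hspa1a and Hspa1b are uncertain, since 56.5% and 49.9% of their 100-base transcript windows occur in another gene, mostly each in the other. The same holds for 38.0% of the windows of Hsp90aa1 and 28.5% of those of Hspa8.

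Loss of the APP family was not accompanied by a detected change in these genes in the neocortex. Of 35 genes tested, 0 had an FDR under 0.05 (Benjamini-Hochberg over all genes, edgeR's quasi-likelihood test), where 0.188% of all 13843 genes did. At an unadjusted p under 0.05 there were 2 of 35, against 10.4% of all genes, and edgeR's exact test, its likelihood ratio test and DESeq2 each called 0. The median log2 fold change was 0.05 over the 35 genes and 0.01 over all genes. The 95% interval of 34 of the 35 genes lay within 2-fold in either direction, and that of 32 within 1.5-fold. In bulk tissue, a change of RNA per cell and a change in the number of cells cannot be told apart. Excitatory neuron markers summed to 6788 to 8253 CPM in cTKO neocortex and 7758 to 8514 CPM in control neocortex. Inhibitory neuron markers summed to 1074 to 1442 CPM and 1042 to 1163 CPM, and astrocyte markers to 4877 to 5269 CPM and 5262 to 5769 CPM. The part of these in the levels of the stress genes was not tested.

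Hspa5 (chromosome 2, 34772090 to 34776529, GRCm38), the master chaperone of the ER, was counted in control neocortex 1 to 5 at 257, 224, 201, 231 and 366 CPM. In cTKO neocortex it stood at 219, 213, 243, 277 and 347 CPM. The groups overlapped over nearly their whole range, and library 5 was the highest of each. Its log2 fold change was 0.03 (SE 0.16, FDR 0.969 from edgeR's quasi-likelihood test). It turned negative when a single library was left out in 4 of 10 cases, and without cTKO neocortex 5, the library with embryonic transcripts, it was -0.10.

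Of the 14 ER chaperones and folding enzymes, 12 had positive and 2 negative estimates, from -0.06 to 0.16. The smallest p belonged to Pdia3, a disulfide isomerase for glycoproteins, with a log2 fold change of 0.14 (SE 0.094, FDR 0.659). In ER-associated degradation Derl3 had the largest estimate, -0.47 (SE 0.32, FDR 0.662), at 0.984 to 3.20 CPM in controls and 0.93 to 1.56 CPM in cTKO mice. Among sensors and transcription factors Atf4 had a log2 fold change of 0.14 (SE 0.096, FDR 0.645). Asns, asparagine synthetase and a target of ATF4, was at 90.8 to 109 CPM in controls and 97.2 to 121 CPM in cTKO mice, so that its log2 fold change was 0.16 (SE 0.074, FDR 0.475) and an exact permutation p of 0.111. Hsph1, the cytosolic HSP110 that releases nucleotide from HSP70, was at 324 to 375 CPM in controls and 339 to 428 CPM in cTKO mice, and its log2 fold change was 0.14 (SE 0.064, FDR 0.472). None of the 36 genes separated the genotypes, which 2.36% of all tested genes did.

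The hippocampus gave the same count. Of 34 genes tested, 0 had an FDR under 0.05 by edgeR's quasi-likelihood test, where 0.489% of all 13702 genes did, and edgeR's exact test, its likelihood ratio test and DESeq2 also called 0. At an unadjusted p under 0.05 there were 2 of 34, against 12% of all genes. The estimates were positive for 29 and negative for 5, with a median of 0.07 against 0.00492 over all genes. Without control hippocampus 5 the median of the 34 was 0.15 and without cTKO hippocampus 4, which held embryonic transcripts, it was 0.02. All 34 intervals lay within 2-fold and 32 within 1.5-fold.

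Hspa5 was counted in control hippocampus 1 to 5 at 265, 244, 238, 284 and 495 CPM. In cTKO hippocampus it stood at 264, 234, 307, 388 and 391 CPM. The highest library of all was a control, and 3 of 5 cTKO libraries lay above the other 4 controls. The log2 fold change was 0.05 (SE 0.21, FDR 0.957 from edgeR's quasi-likelihood test). It was 0.30 without control hippocampus 5 (FDR 0.519) and -0.03 without cTKO hippocampus 4. Dnajb11, an ER co-chaperone of HSPA5, had the smallest p among the ER chaperones, with a log2 fold change of 0.12 (SE 0.10, FDR 0.717).

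Hsph1 (chromosome 5, 149616843 to 149636498) had the largest estimate in the hippocampus. Its controls stood at 327, 291, 294, 352 and 408 CPM and its cTKO libraries at 336, 403, 561, 432 and 419 CPM. Library 3 of the cTKO mice was far above the rest, 3 of the cTKO libraries lay above all 5 controls, and the groups overlapped. The log2 fold change was 0.36 (SE 0.13, unadjusted p 0.0148, FDR 0.282 from edgeR's quasi-likelihood test) and the exact permutation p was 0.0476. Without cTKO hippocampus 3 the log2 fold change was 0.25 (FDR 0.402). That library also had the highest immediate early gene sum of the hippocampal libraries, 838 CPM against 299 to 703 CPM in the others, and the part of this in the Hsph1 level was not tested. Dnajb1, the HSP40 partner of the same HSP70 cycle, had a log2 fold change of 0.00449 (SE 0.072).

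Asns (chromosome 6, 7675165 to 7693209) was the single gene of the 36 whose hippocampal genotypes did not overlap, as 3.15% of all tested genes did. It stood at 95.3, 82.7, 92.5, 94.8 and 96.7 CPM in controls and at 99.6, 107, 97.8, 107 and 107 CPM in cTKO mice. The log2 fold change was 0.17 (SE 0.060, FDR 0.290 from edgeR's quasi-likelihood test). The exact permutation p was 0.00794, the smallest that 5 libraries against 5 allow. Any gene without overlap has this p, so it adds nothing to the lack of overlap for which Asns is named. Atf4 itself had a log2 fold change of 0.14 (SE 0.10, FDR 0.647), and the other outputs of this branch that could be tested were Ddit3 at 0.03 and Chac1 at 0.11. Trib3 was under the count filter in every comparison, at 0 to 0.964 CPM. Derl3 was under it in the hippocampal genotype comparison, at 0.247 to 1.78 CPM. In the degradation group Derl1, a channel component of the retrotranslocation machinery, had the smallest p, with a log2 fold change of 0.08 (SE 0.069, FDR 0.722).

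**Figure D1:**
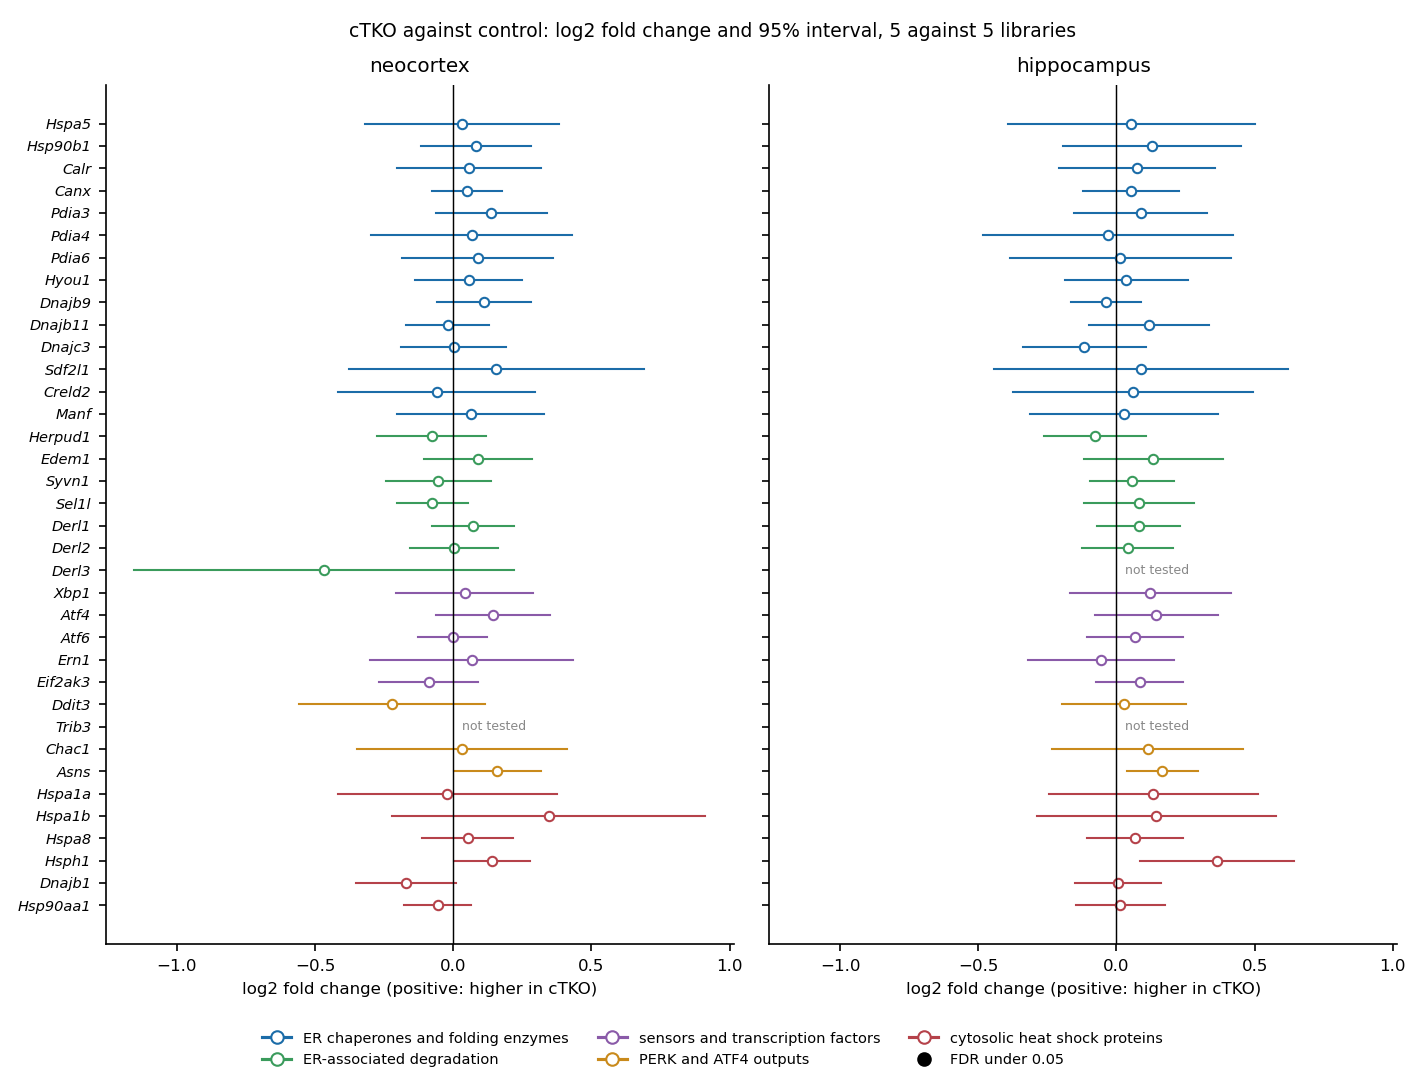
Log2 fold change of cTKO against control (x axis) with its 95% interval for each gene (y axis, coloured by role), in the neocortex and the hippocampus, from 5 against 5 libraries. No point is filled, since 0 genes passed an FDR of 0.05. The intervals of Hsph1 and Asns lie to the right of 0 in both regions, and those of Hspa5, Pdia4 and Sdf2l1 are among the widest.

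A further 106 genes of the same pathways, in 5 lists, were examined as context, and 102 were tested. In the neocortex 0 passed an FDR of 0.05, against 0.188% of all genes, with a median log2 fold change of 0.05. In the hippocampus 1 passed, which is 0.98% of the 102 against 0.489% of all genes. A share that rests on 1 gene says nothing of the lists as a whole. The gene was Creb3l1, which encodes an ER-bound transcription factor of the ATF6 type known from astrocytes and secretory cells. Its level ranged from 5.38 to 7.31 CPM (median 6.93) in control hippocampus and from 8.60 to 11.5 CPM (median 10.9) in cTKO hippocampus, without overlap. The log2 fold change was 0.68 (SE 0.12, FDR 0.0302 from edgeR's quasi-likelihood test), and the FDR was above 0.05 when any of 8 of the 10 libraries was left out, between 0.0553 and 0.110. In the neocortex its log2 fold change was 0.29 (SE 0.20, FDR 0.676), and the difference between the regions was 0.40 (95% interval -0.10 to 0.89), which did not pass. The astrocyte markers of the hippocampus summed to 5086 to 8464 CPM in cTKO mice and 5879 to 7900 CPM in controls.

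The ER chaperones varied between mice of the same group. The standard deviation of log2 CPM within groups, pooled over the 4 groups, was 0.35 for Hspa5, 0.36 for Pdia4 and 0.45 for Sdf2l1, against a median of 0.17 over all tested genes. Over the 14 ER chaperones it had a median of 0.23, and 10 of them lay above the median gene. Canx, the membrane-bound lectin chaperone, and Dnajb9 were steadier, at 0.11 and 0.10. In ER-associated degradation 1 of 7 genes lay above the median gene.

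The ER chaperones deviated together. Deviations of log2 CPM from the mean of the library's own group were compared with those of Hspa5 over the 10 libraries of a region. The correlation had a median of 0.85 over the other 13 ER chaperones in the neocortex, where it passed 0.8 for 8 of them, and of 0.94 in the hippocampus, where it passed 0.8 for 12. Among all tested genes, 0.669% passed 0.8 in the neocortex and 1.68% in the hippocampus. Pdia6, with an r of 0.99, and Hsp90b1 (GRP94), with 0.96, were the genes most like Hspa5 of all tested in the neocortex. In the hippocampus that was Hyou1, the ER HSP110, with 0.97. Next came Xpo1 with 0.96 in the neocortex and Fndc3a with 0.97 in the hippocampus, both from outside the stress genes described here. Of 14191 genes, 95 passed 0.8 in the neocortex and 238 in the hippocampus, so most genes over 0.8 were not ER chaperones. The points share library and mouse, and the number of libraries is small.

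In the other roles the correlation with Hspa5 had lower medians. For ER-associated degradation the median r was 0.46 (neocortex) and 0.60 (hippocampus), with 0.31 and 0.42 for sensors and transcription factors, and 0.39 and 0.62 for cytosolic heat shock proteins. Xbp1, the transcription factor activated by IRE1, was the closest of the sensors and factors, with 0.77 and 0.89. The outputs of PERK and ATF4 had a median r of 0.075 and 0.44. Asns had an r of -0.18 and 0.44, and Hsph1 of 0.03 and 0.59. Besides Xbp1, some genes of these roles passed 0.8 in a single region. These were Sel1l with 0.46 and 0.94, Herpud1 with 0.61 and 0.85, Ddit3 with 0.16 and 0.92, and Hspa1b with 0.81 and 0.69. Of the 36 genes, the 8 others tested with an ER stress element had a median r of 0.83 and 0.91, and the 20 with a promoter but without the element 0.42 and 0.74. Most of the carriers are ER chaperones and most of the 20 are of other roles, so element and role cannot be told apart here. Of the ER chaperones with a promoter but no element, Pdia3 had 0.85 and 0.94 and Pdia4 0.93 and 0.94. In the same set, Dnajb11 had 0.83 and 0.95, Sdf2l1 0.65 and 0.94, and Dnajb9 0.44 and 0.77. Outside the 36, the 9 tested genes that carry the element had a median r of 0.27 and 0.064, and 0 of them passed 0.8 in either region.

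**Figure D2:**
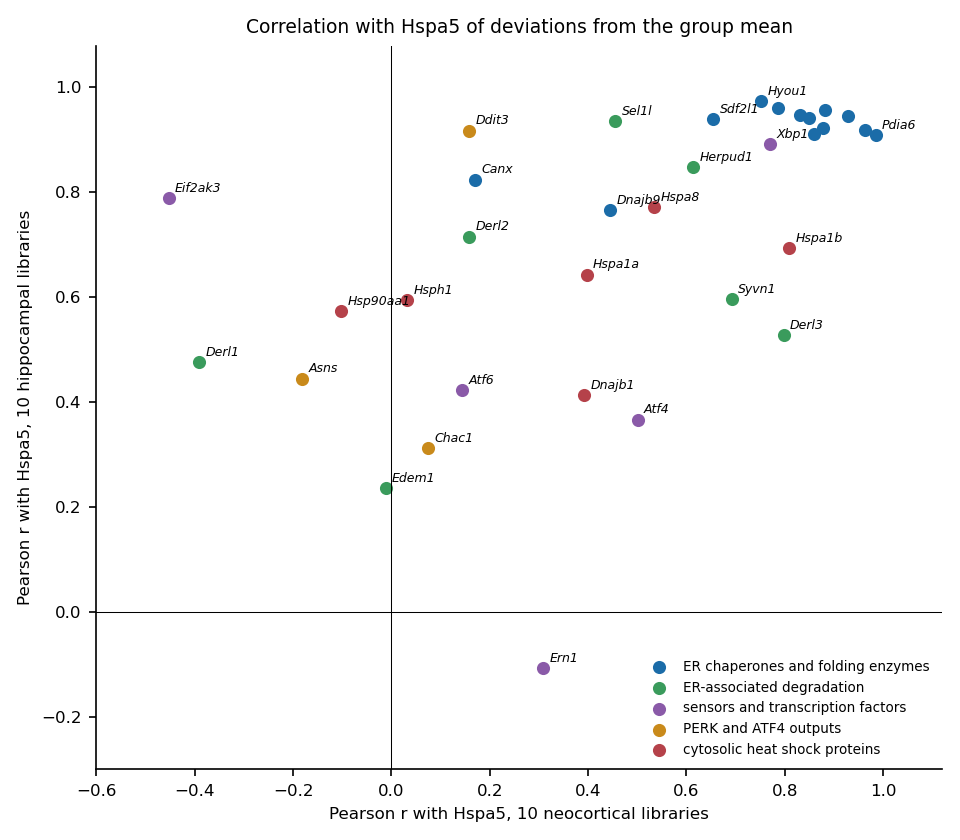
Pearson r with Hspa5 of deviations from the group mean, over 10 neocortical libraries (x axis) and 10 hippocampal libraries (y axis), for the 34 other genes tested, coloured by role. ER chaperones gather at the upper right, while Canx and Dnajb9 lie to the left of them and Ern1, Edem1 and Chac1 are low in the hippocampus.

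The shared deviations were largest in a few libraries. Control library 5 was the highest of its group in both regions for 12 of the 14 ER chaperones, all but Canx and Dnajb9, and their mean deviation there, on the log2 scale, was 0.31 for the neocortex and 0.49 for the hippocampus. Sdf2l1, a lumenal partner of the chaperone complex, was at 16.5 CPM in control hippocampus 5 and at 6.61 to 7.43 CPM in the other 4 controls. Manf, a secreted ER stress factor, was at 72.8 CPM there and at 42.0 to 44.4 CPM in the others. Library 5 of the cTKO neocortex and library 4 of the cTKO hippocampus, which held embryonic transcripts, had mean deviations of 0.27 and 0.25, and cTKO hippocampus 5, with an embryonic marker sum within 1.18 to 3.32 CPM, had 0.16. The part of the embryonic transcripts in the levels of those libraries was not tested.

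Without control library 5, the median correlation of the 13 ER chaperones with Hspa5 came to 0.75 (neocortex) and 0.87 (hippocampus). Without the library with embryonic transcripts it was 0.81 and 0.94, and without either it was 0.68 and 0.82, the last over 8 libraries in each region. The number of ER chaperones over 0.8 in the neocortex went from 8 to 2 when both were left out, and in the hippocampus from 12 to 10. Among all tested genes, 0.881% (neocortex) and 3.51% (hippocampus) passed 0.8 with both left out.

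**Figure D3:**
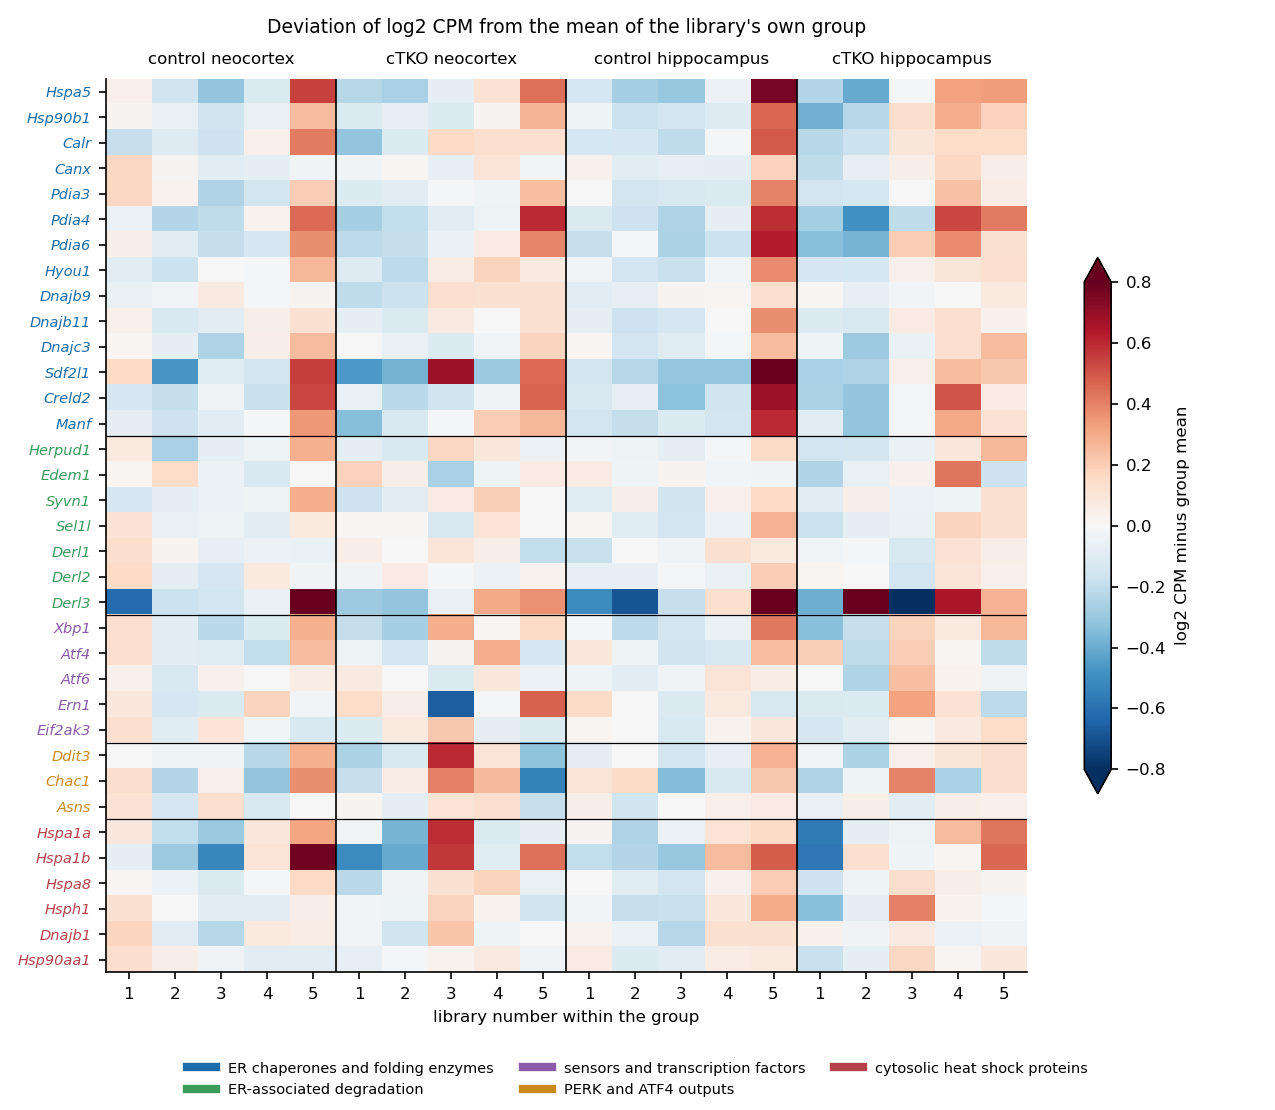
Deviation of log2 CPM from the mean of the library's own group (colour, with pointed ends for values past the scale) for 35 tested genes (rows, by role) in 20 libraries (columns, by group and number). The ER chaperones at the top are red together in control library 5 of both regions, in cTKO neocortex 5 and in cTKO hippocampus 4 and 5, and Hsph1 is red in cTKO hippocampus 3.

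Of the gene pairs chosen for a correlation test across libraries, 1 pair for each stress pathway in each region, 1 of 6 passed. Hspa5 and Sdf2l1, both ER lumen targets of ATF6, had a Pearson r of 0.94 over 10 hippocampal libraries (exact permutation p 0.00326 within genotypes, two-sided, adjusted 0.0196 over the 6 relations) and a Spearman rho of 0.75 (exact permutation p 0.0188, adjusted 0.0563). Without the 2 libraries farthest from the median of Hspa5 the r was 0.84. The pair no longer passed without control hippocampus 5 (adjusted permutation p 0.103) or without cTKO hippocampus 3 (adjusted permutation p 0.0979). In the neocortex the same pair had an r of 0.65 (exact permutation p 0.0497, adjusted 0.0828) and a rho of 0.58 (adjusted permutation p 0.177), and the r was 0.30 without the 2 farthest libraries. The HSF1 targets Hsph1 and Dnajb1 had an r of 0.66 in the neocortex (exact permutation p 0.0552, adjusted 0.0828) and 0.54 in the hippocampus (exact permutation p 0.0779, adjusted 0.0935). Their rho was 0.55 and 0.52 (both adjusted permutation p 0.177). Trib3 and Asns, both targets of ATF4, had an r of -0.31 and 0.55 (adjusted permutation p 0.464 and 0.0828), with Trib3 at few counts.

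Derl1, Derl2 and Pdia3 were higher and Edem1 was lower in the hippocampus than in the neocortex, in both genotypes. In control mice 12 of 35 passed an FDR of 0.05 for hippocampus against neocortex, where 59.1% of all 13832 genes did. Of these, 5 were higher in the hippocampus (29.8% of all genes) and 7 lower (29.2%). The library numbers paired the control libraries of the regions, and with the number as a replicate block 21 of 35 passed in controls, 11 higher and 10 lower, where 61.4% of all genes did. In cTKO mice 4 of 35 passed, where 41.3% of all genes did, 3 of them higher (20.2% of all genes) and 1 lower (21.1%). In both genotypes and in the same direction there were 4 of 35, against 38.7% of all genes. The neocortex was extracted with another RNA kit than the hippocampus, so region and kit cannot be told apart.

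Derl1 (chromosome 15, 57869502 to 57892418) was at 36.2 to 41.9 CPM in control neocortex (median 36.8) and 47.4 to 58.4 CPM in control hippocampus (median 53.7). In cTKO mice it was at 34.6 to 42.5 CPM (median 41.0) and 51.9 to 61.5 CPM (median 56.2). The regions did not overlap in either genotype, and the log2 fold changes were 0.49 (SE 0.064, FDR 9.54e-06 from edgeR's quasi-likelihood test) and 0.50 (SE 0.074, FDR 0.000183). Its paralogue Derl2 had log2 fold changes of 0.22 and 0.25. Derl3, the third of the family, went the other way at a low level, with -1.09 in controls (FDR 0.0352) and -0.43 in cTKO mice (FDR 0.406).

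Pdia3 (chromosome 2, 121413902 to 121438687, where it overlaps Catsper2 on the opposite strand) was at 179.6 to 244 CPM in neocortex and 249 to 363 CPM in hippocampus of controls, without overlap. In cTKO mice the regions overlapped, at 217 to 275 CPM and 266 to 346 CPM. Its log2 fold change was 0.37 in controls (SE 0.11, FDR 0.00666 from edgeR's quasi-likelihood test) and 0.32 in cTKO mice (SE 0.094, FDR 0.0155). Edem1, a mannosidase-like factor that directs glycoproteins to degradation, was lower in the hippocampus. It stood at 18.8 to 22.7 CPM in neocortex and 15.2 to 16.3 CPM in hippocampus of controls, a log2 fold change of -0.40 (SE 0.069, FDR 0.000137). In cTKO mice it was -0.36 (SE 0.13, FDR 0.0399), and the FDR was above 0.05 in 10 of 19 alternatives, including the fit without cTKO neocortex 5 (FDR 0.0726) or without cTKO hippocampus 5 (FDR 0.0899).

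The sensors and the PERK branch had lower estimates in the hippocampus of controls, where all 5 sensors and factors and all 3 outputs tested were negative. Of these, 2 of 5 and 2 of 3 passed an FDR of 0.05. Over all genes 59.1% passed, and 29.2% passed as lower. Eif2ak3 had a log2 fold change of -0.35 (SE 0.068, FDR 0.000372 from edgeR's quasi-likelihood test), Atf6 of -0.26 (SE 0.053, FDR 0.000519), Chac1, a glutathione-degrading enzyme, of -0.52 (SE 0.15, FDR 0.00698) and Ddit3 of -0.28 (SE 0.10, FDR 0.0275). In cTKO mice the same genes had -0.18, -0.20, -0.44 and -0.04, and 0 of them passed. Dnajb9 (0.21) and Dnajc3 (0.27), co-chaperones of HSPA5, also passed in controls as higher in the hippocampus, and Sel1l (-0.18), the adaptor of the HRD1 ligase, as lower. Of the 6 cytosolic heat shock proteins, 0 passed in either genotype without the replicate block, and with it Hspa8, Hspa1b and Dnajb1 passed in controls.

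Hspa5 was higher in the hippocampus than in the neocortex in each control pair of the same number. Its log2 fold change was 0.25 in controls (SE 0.19, FDR 0.278 from edgeR's quasi-likelihood test) and 0.27 in cTKO mice (SE 0.17, FDR 0.225). With the replicate block the value in controls was 0.23 (FDR 0.00367). Calr, Pdia4 and Pdia6 also passed with the block and not without it. Without both control libraries numbered 5, which was chosen after seeing the data, 14 of 35 genes passed, 7 higher and 7 lower, and Hspa5 had a log2 fold change of 0.17 (FDR 0.0748).

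**Figure D4:**
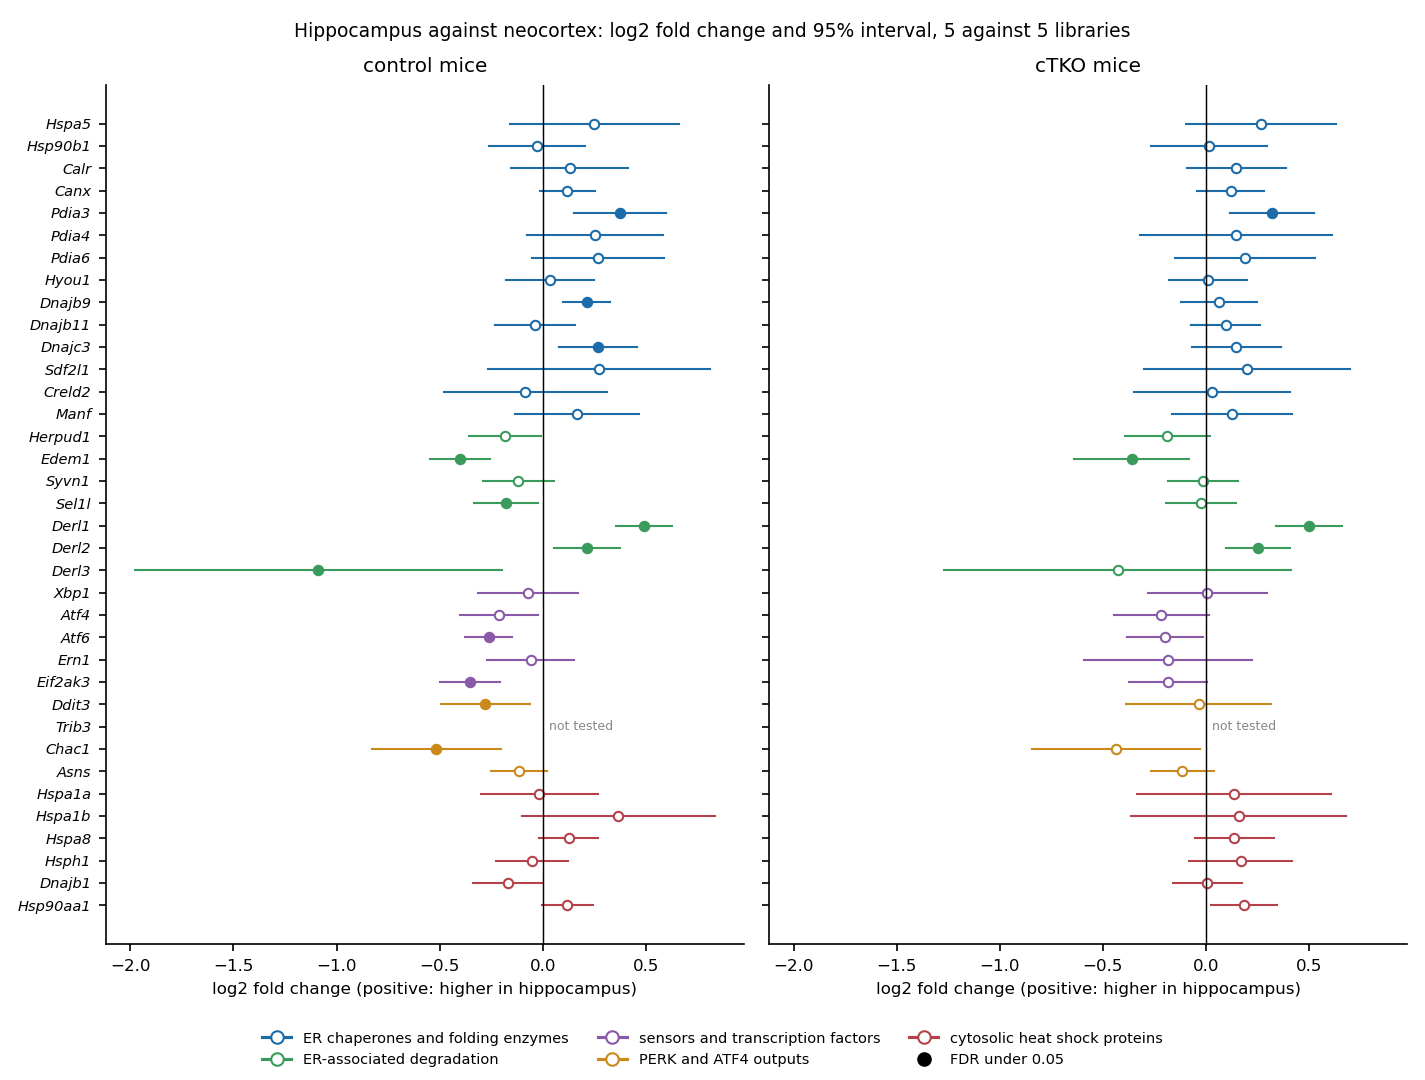
Log2 fold change of hippocampus against neocortex (x axis) with its 95% interval for each gene (y axis, coloured by role), in control and in cTKO mice, from 5 against 5 libraries, filled where the FDR was under 0.05. Derl1, Derl2 and Pdia3 are filled to the right of 0 and Edem1 to the left in both genotypes, and 8 more genes are filled in controls. The fits shown are without the replicate block.

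Of the 106 context genes, 42 were higher and 18 lower in control hippocampus, which is 58.8% of the 102 tested against 59.1% of all genes. In cTKO hippocampus 36 were higher and 10 lower, 45.1% of them against 41.3% of all genes. These shares of both directions together are near those of all genes. By direction they were not, as more of the context genes were higher than lower. Of all genes, 29.8% were higher and 29.2% lower in control hippocampus, and 20.2% and 21.1% in cTKO hippocampus. The regions also differed in the cell markers. Astrocyte markers summed to 5262 to 5769 CPM in neocortex and 5879 to 7900 CPM in hippocampus of controls, choroid plexus and ependymal markers to 16.9 to 26.5 CPM and 93.3 to 2792 CPM, and striatal markers to 493 to 685 CPM and 177 to 204 CPM. The part of these differences in the regional values of the stress genes was not tested.

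The genotype effect was not found to differ between the regions. In the interaction of region and genotype 0 of 35 genes had an FDR under 0.05 by edgeR's quasi-likelihood test, where 0.0564% of all 14192 genes did. At an unadjusted p under 0.05 there were 0 of 35, against 3.75% of all genes, and the likelihood ratio test and DESeq2 also called 0. The smallest p belonged to Eif2ak3, with a difference of log2 fold changes of 0.18 (95% interval -0.05 to 0.41), and to Dnajb1, also with 0.18 (95% interval -0.05 to 0.42). For Hspa5 it was 0.03 (95% interval -0.56 to 0.62).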

How the data were processed

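The authors extracted RNA from the neocortex with RNeasy Plus Universal and from the hippocampus with RNeasy Plus Mini kits, mapped reads to mm10 with STAR 2.5.4a, assigned them to genes with HTSeq, as the submitters' processing notes give it, and deposited raw counts per gene symbol for each of 20 libraries. The strand setting and gene annotation of the counting are not given in the sources used here, so reads of genes that overlap on opposite strands cannot be told apart.

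A gene was kept when at least 5 libraries of a fit had a CPM above 1, counts were scaled by TMM, and groups were compared with the quasi-likelihood test of edgeR 4.0.16 (limma 3.58.1, R 4.3.3), in each region for genotype, in each genotype for region, and in all 20 libraries for the interaction. P values were adjusted by Benjamini-Hochberg over all genes tested, with an FDR threshold of 0.05. Log2 CPM used a prior count of 2. Single genes were compared by two-sided exact permutation tests over 252 splits, and pairs of genes by exact permutation within genotypes over 14400 pairings. In simulations of 200 genes changed 2-fold, 95.5% were recovered in the neocortex (13762 genes) and 92% in the hippocampus (13647 genes), with 5.45% and 4.66% false calls. The changed genes had a mean CPM over 2, and counts were drawn independently, without libraries that stand apart or deviations shared between genes. Recovery of changes smaller than 2-fold was not simulated. The smallest level taken as detectable, 3 counts, lay between 0.123 and 0.247 CPM and takes in counting error alone, as the reads carry no molecular identifiers and may be copies.

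The 36 genes and all lists were chosen with earlier results of these data known. Genes are named where their FDR was under 0.05, where the genotypes did not overlap, or where they had the smallest p of their role in a genotype comparison; where they had the 2 largest changes of their role among those passing in both genotypes for region; and where they had the 2 smallest p of the interaction. Hspa5 is given throughout, genes under the filter are given by their range, context genes are named where they passed for genotype, and other genes were named after their values were seen.

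Same-numbered neocortical and hippocampal control libraries deviated together, with correlations of 0.13 to 0.33 over genes, each the best with its own number, so the number was taken to pair them. Both tissues came from 5 mice of each genotype, and whether a number marks a mouse is not stated. The p values of tests within a region measure the spread between mice. The region and interaction fits without the block treated the tissues of the same mice as independent libraries. With the block, the region p values measure the spread within pairs of the same number. Exon lengths and shared windows are from GENCODE M21 (GRCm38) and promoters from RefSeq GRCm38.p6. Alternatives were edgeR's likelihood ratio and exact tests, DESeq2 1.42.0, its size factors, other count filters, the replicate block, Xist as a covariate, one fit of all libraries, and each library left out. Python 3.11.15 with pandas 2.3.3 and matplotlib 3.10.9 made the figures.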

Additional observations from a re-analysis of the deposited data

Results flagged for a closer look

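A level was singled out when the gap between the highest or lowest of 5 libraries and its neighbour was more than 0.71 of the range of the group. Among 144 sets of 5 libraries, 4 groups for each of the 36 genes, 23 levels met this. Chance alone gives about 1 in 20, or 7.2, if the sets are independent. They are not, since the genes share libraries and the ER chaperones deviated together, so 23 cannot be weighed against 7.2. Of the 23, 15 were in control hippocampus 5 and 4 in control neocortex 5, and all 19 were the highest of their group.

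In control hippocampus 5 these were the ER chaperones Hspa5 at 495 CPM, Hsp90b1 at 506 CPM, Calr at 733 CPM, Pdia3 at 363 CPM, Pdia4 at 87.9 CPM, Pdia6 at 153 CPM, Hyou1 at 157 CPM, Dnajb11 at 65.3 CPM, Sdf2l1 at 16.5 CPM, Creld2 at 20.02 CPM and Manf at 72.8 CPM. They also included the degradation genes Herpud1 at 61.0 CPM, Derl2 at 29.0 CPM and Derl3 at 1.78 CPM, and the transcription factor Xbp1 at 95.6 CPM. In control neocortex 5 they were Creld2 at 19.4 CPM, Manf at 55.2 CPM, Syvn1 at 97.5 CPM and Derl3 at 3.20 CPM. The ER chaperones Pdia3, Pdia4 and Creld2 stood apart in cTKO neocortex 5 at 275 CPM, 76.9 CPM and 17.7 CPM. Trib3 stood apart in cTKO hippocampus 4 at 0.957 CPM, and these libraries of cTKO mice are those with embryonic transcripts.

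Marker sums also stood apart by the same measure. The embryonic sum was 634 CPM in cTKO neocortex 5, 402 CPM in cTKO hippocampus 4 and 2.76 CPM in control hippocampus 1, the last close to the other libraries in absolute terms. The choroid plexus and ependymal sum was 2792 CPM in control hippocampus 3, 629 CPM in cTKO hippocampus 5 and, as the lowest, 16.9 CPM in control neocortex 1. The immediate early sum was 838 CPM in cTKO hippocampus 3. The part of these in the levels of the stress genes was not tested.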

How the results depend on the processing

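The count of genes passing for genotype was 0 in both regions under each of 19 alternatives, and the count for the interaction was 0 under each of 29. For hippocampus against neocortex, 21 genes passed in controls with the replicate block and 12 without it, and with a single library left out the count was 9 to 13. In cTKO mice, 7 passed in a fit of all 20 libraries and 4 in the fit of 10, with 3 to 5 when a library was left out. In the other comparisons the replicate numbers were not taken to pair the libraries, since not every same-numbered pair had a correlation over 0.1. Over 0.1 were 3 of 5 pairs between the regions of cTKO mice (-0.07 to 0.40, 3 best with their own number), 3 of 5 between neocortical genotypes (-0.0091 to 0.22, 4 best) and 1 of 5 between hippocampal genotypes (-0.14 to 0.14, 1 best). The libraries with embryonic transcripts, cTKO neocortex 5 and cTKO hippocampus 4, correlated at 0.58. With the block, 5 genes passed in cTKO mice, where 41.9% of all genes did. Hspa5 was the addition (log2 fold change 0.26, FDR 0.0235 from the quasi-likelihood test). That value rests on a pairing by number that was not accepted for cTKO mice. No call among the genes changed with the block for genotype or interaction. Leaving out a library moved the log2 fold change of Hspa5 from -0.10 to 0.19 in the neocortex, from -0.033 to 0.30 in the hippocampus and from -0.13 to 0.27 in the interaction. The r of Hspa5 and Sdf2l1 was 0.51 to 0.88 over neocortical libraries and 0.89 to 0.97 over hippocampal libraries. The r of Trib3 and Asns in the neocortex lay between -0.50 and 0.065. The cause was not tested. Over all genes, 26 passed for genotype in the neocortex and 67 in the hippocampus, against 167 and 259 with the likelihood ratio test, 163 and 257 with the exact test and 221 and 331 with DESeq2. They were 12 and 58 with the block, 17 and 195 in a fit of all 20 libraries, 42 and 72 with no filter, and 7 to 133 and 15 to 149 with a library left out. For the interaction 8 passed, against 26 with the likelihood ratio test or DESeq2, 18 with the block and 5 to 20 with a library left out. Depth limits what is said of Trib3 and Derl3, which lie near the count filter.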
